A study of Mus musculus with 15 samples.

Results

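The imprinted growth genes described here are 10 mouse genes picked by name, H19, Igf2, Dlk1, Meg3, Peg3, Cdkn1c, Grb10, Mest, Plagl1 and Ndn, out of 53700 genes in the count table. All 10 were found by their Ensembl identifiers, and 9 passed the filter on low counts; Dlk1 did not. H19 led to the choice, because it was lower after CEES and higher with SNX-5422 beside both agents in these same libraries. Its values are therefore given as a description with no test, and the other 8 members that passed the filter were tested. Whole dorsal skin of male SKH-1 mice, a hairless strain, was sequenced in 15 libraries of 5 groups with 3 libraries each, 24 h after treatment per the labels. Control skin received the ethanol vehicle. The PAO group received phenylarsine oxide, an organic arsenical, at 25 µg/cm2 (100 µg per mouse), and the CEES group received 2-chloroethyl ethyl sulfide, an analogue of sulfur mustard, at 500 µg/cm2 (2 mg per mouse), both diluted in ethanol. In the SNX-5422+PAO and SNX-5422+CEES groups, the HSP90 inhibitor SNX-5422 followed the agent after 15 min, at 20 mg/kg on the injured area. SNX-5422 alone was not analysed here, so the inhibitor was compared only on top of an agent.

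Imprinted genes are transcribed mainly from the copy inherited from the mother or from the father, and many of them set growth before and after birth. H19, a noncoding RNA made from the maternal copy, and Igf2, a growth factor made from the paternal copy, lie side by side on chromosome 7 and share enhancers and an imprinting control region. Dlk1 and Meg3 form a similar pair on chromosome 12. In mice, H19 is shut down in most tissues after birth but stays abundant in skeletal muscle. The table counts both parental copies together, so it carries no value for the imprint itself.

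Several members also carry microRNAs within their transcripts, shown here because the gene counts below cover H19 and Meg3 exons that hold them, while those of Igf2 and Mest lie in introns. The sequences are mature microRNAs from RefSeq (GRCm38.p6), with the seed, bases 2 to 8, in capitals. miR-675 lies in an exon of H19, with its 5p arm at chr7:142577112-142577133 on the minus strand. miR-483 lies in an intron of Igf2, with its 3p arm at chr7:142654932-142654952 on the minus strand. miR-335 lies in an intron of Mest, with its 5p arm at chr6:30741314-30741336 on the plus strand. miR-770 lies in an exon of Meg3, with its 5p arm at chr12:109563710-109563731 on the plus strand.
miR-675-5p: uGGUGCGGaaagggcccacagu
miR-675-3p: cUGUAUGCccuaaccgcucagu
miR-483-3p: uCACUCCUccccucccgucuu
miR-483-5p: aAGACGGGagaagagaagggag
miR-335-5p: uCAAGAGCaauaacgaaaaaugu
miR-335-3p: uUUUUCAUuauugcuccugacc
miR-770-5p: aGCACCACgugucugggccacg
miR-770-3p: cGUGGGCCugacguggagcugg
No seed is shared between these 8 arms. The libraries measured long RNA per gene, and mature microRNAs were not measured.

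Gene counts per library ranged from 16838212 to 28887367 with a median of 20512276. Levels are in CPM, counts relative to the total of a library scaled with TMM, differences are log2 fold changes ± SE from edgeR's quasi-likelihood fit of all 15 libraries, and adjusted p-values are Benjamini-Hochberg values over the 22529 genes tested, called under 0.05. The libraries of both CEES groups carry later codes (13 to 18) than all others (1 to 9). Any separate handling and treatment therefore cannot be told apart where either CEES group is set against Control or a PAO group. Skeletal muscle genes took 7.15 to 12% of gene counts in Control, 3.82 to 4.50% in CEES and 7.05 to 9.09% in SNX-5422+CEES, so the dorsal skin samples held muscle RNA in amounts that moved with the groups. Keratinocyte markers were present in every library, with counts for 13 of 13 genes.

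After CEES, Peg3, Grb10, Mest and Ndn rose and Igf2 fell, 5 of 8 tested members, against 33.9% of all genes called. All genes split into 17.8% raised and 16.2% lowered there. After PAO, Meg3 alone was called, lower, 1 of 8 against 20.4% of all genes, of which 11.9% were raised and 8.58% lowered. SNX-5422 raised Peg3 on top of PAO, 1 of 8 against 5.96% of all genes (2.57% raised, 3.39% lowered). It raised Igf2 on top of CEES, 1 of 8 against 7% (3.54% raised, 3.46% lowered). The median difference of the 8 tested members was 0.29 after CEES, beside -0.04 over all genes, and -0.17 after PAO, beside 0. With SNX-5422, the median was -0.07 on top of PAO, beside -0.01, and 0.14 on top of CEES, beside 0.01.

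**Figure D1:**
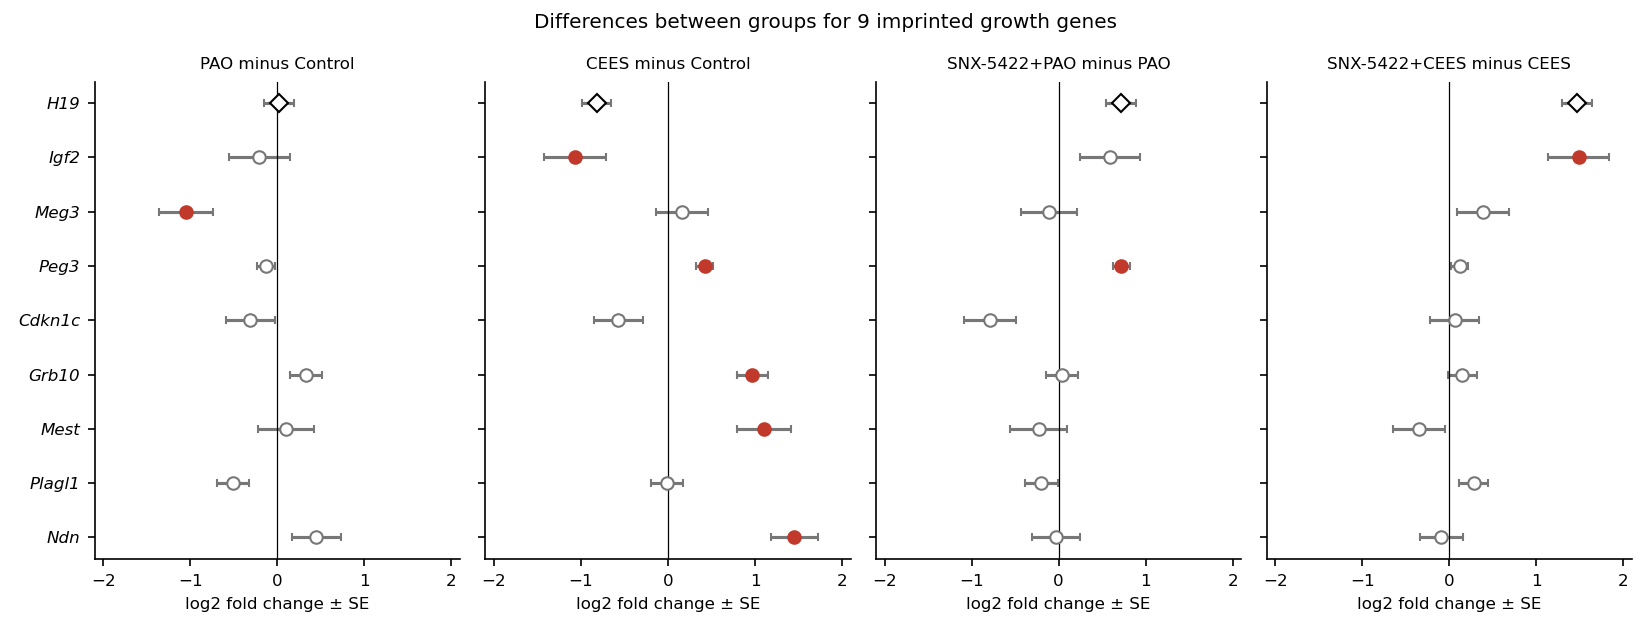
Log2 fold changes ± SE (x axis) of the 9 members that passed the filter (y axis) in 4 comparisons, from edgeR's fit of 15 libraries. Filled red circles were called at an adjusted p under 0.05, open circles were not, and the open diamond is H19, which was not tested; after CEES, 4 members sit to the right of 0 as called and Igf2 to the left.

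H19 was by far the most abundant member. In Control skin its level was 104 CPM per kb of exon, and the next member, Grb10, was at 2.94 CPM per kb. H19 took 40.3 to 80.9% of the counts of the 10 members in a library, with a median of 66.4%. The lowest member per kb in Control was Dlk1, at 0.0616 CPM per kb, and Igf2 was next to last at 0.184 CPM per kb.

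H19 fell into 3 tiers over the 5 groups. It stood at 260, 271 and 235 CPM in Control and at 234, 303 and 240 CPM after PAO. After CEES it stood at 120, 197 and 115 CPM. With SNX-5422 it stood at 382, 459 and 440 CPM on top of PAO and at 349, 458 and 391 CPM on top of CEES. All 3 CEES libraries lay below every other library, all 6 libraries with SNX-5422 lay above all 9 without it, and PAO overlapped Control. CEES replicate 2 was the highest of its group. The group means ran from 427 ± 40 CPM (SD, n = 3) in SNX-5422+PAO and 400 ± 55 CPM in SNX-5422+CEES, which overlapped, through 259 ± 37.8 CPM in PAO and 255 ± 18.4 CPM in Control, which overlapped as well, to 144 ± 46.3 CPM in CEES. The highest group mean was 2.97 times the lowest.

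As fitted differences, H19 was lower in CEES than in Control by -0.82 ± 0.17 and differed by 0.02 ± 0.17 between PAO and Control. With SNX-5422 it was higher by 0.72 ± 0.17 than in PAO and by 1.47 ± 0.17 than in CEES. Both SNX-5422 groups were also above Control, by 0.74 ± 0.17 beside PAO and 0.65 ± 0.17 beside CEES. Without CEES replicate 2 the difference between CEES and Control was -1.12 and that between SNX-5422+CEES and CEES was 1.77. The level of SNX-5422+PAO above Control was 0.41 under total counts and 0.07 with the mitochondrial ribosomal RNA share as a covariate; that share was 6.63 to 8.23% in Control and 12.3 to 17.4% in SNX-5422+PAO.

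Skeletal muscle genes moved in the same directions as H19 after CEES and with SNX-5422 on top of each agent. The list holds contractile and sarcomere genes of mature fibres, and 23 of its 24 genes were tested. After CEES, 18 fell and 0 rose, with a median of -1.01; Ttn, the giant sarcomere spring, fell by 1.40 (adjusted p = 2.22e-05, edgeR) and Neb, the thin filament ruler, fell by 1.25 (adjusted p = 9.36e-06, edgeR). With SNX-5422, 18 of 23 rose on top of CEES, with a median of 1.02, and 10 of 23 rose on top of PAO, with a median of 0.69. After PAO alone, 1 rose, Des, the muscle intermediate filament, by 0.79 ± 0.14 (adjusted p = 0.000857, edgeR). Beside these counts, 16.2% of all genes fell after CEES and 11.9% rose after PAO. With SNX-5422, 3.54% of all genes rose on top of CEES and 2.57% on top of PAO. Against Control, 16 of 23 rose in SNX-5422+PAO, with a median of 0.76, and 4 of 23 in SNX-5422+CEES, with a median of 0.05. H19 was above Control in both, by 0.74 ± 0.17 and 0.65 ± 0.17. Over all genes, 10.7% and 13.1% rose there. In bulk skin, fewer cells of a type and less RNA per cell cannot be told apart.

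Set against the summed muscle counts, the tiers of H19 were different. H19 had 4.04, 2.26 and 3.00 counts per 1000 muscle counts in Control and 2.42, 2.92 and 2.34 after PAO. It had 3.16, 5.78 and 3.11 after CEES. With SNX-5422 it had 2.59, 3.49 and 3.33 on top of PAO and 5.47, 5.17 and 5.15 on top of CEES. On this scale CEES was not lower than Control and overlapped it, SNX-5422+PAO overlapped PAO, and SNX-5422+CEES lay above both Control and both PAO groups but within the range of CEES. With the mean log2 CPM of the muscle list as a covariate, the fitted differences were -0.86 for CEES against Control, 0.77 for SNX-5422+PAO against PAO and 1.52 for SNX-5422+CEES against CEES. In each of these comparisons the muscle shares of the compared groups did not overlap. This fit therefore rests on the spread within groups and cannot separate muscle from treatment.

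**Figure D2:**
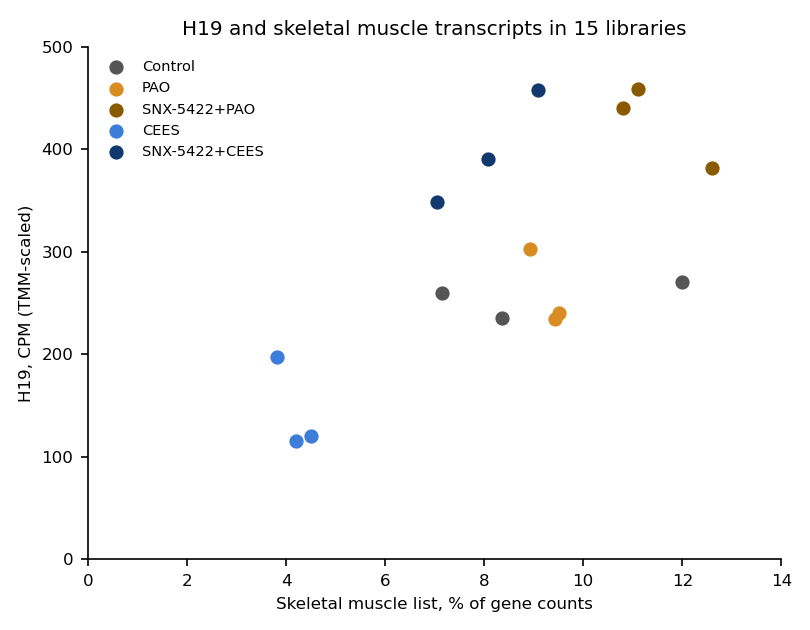
H19 in CPM on TMM-scaled libraries (y axis) against the share of gene counts taken by the skeletal muscle list in percent (x axis), with a point per library coloured by group. The 3 CEES libraries sit at the lower left, with 3.82 to 4.50% muscle counts and 115 to 197 CPM of H19, and the libraries with SNX-5422 lie above the others at a like muscle share.

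Genes of muscle precursors and regenerating fibres did not follow the same order. Des belongs to this list as well as to the skeletal muscle list, so its rise after PAO counts in both. Of 12 tested, 7 rose after PAO, among them Myog, a transcription factor of muscle differentiation, by 2.36 ± 0.20 (adjusted p = 1.53e-06, edgeR), and Myod1, another such factor, by 1.83 ± 0.28 (adjusted p = 0.000289, edgeR), in a comparison where H19 was level. After CEES, 2 of 12 rose, Myog by 1.60 ± 0.20 (adjusted p = 1.44e-05, edgeR) and Myh8, a perinatal myosin, by 0.64 ± 0.22 (adjusted p = 0.036, edgeR), in a comparison where H19 was lower. With SNX-5422, 3 of 12 rose on top of CEES and 1 of 12 on top of PAO. The shares of all genes raised were 11.9% after PAO and 17.8% after CEES. With SNX-5422 they were 3.54% on top of CEES and 2.57% on top of PAO. Myh8 was raised by the inhibitor in both arms, by 1.82 ± 0.21 on top of CEES (adjusted p = 0.000232, edgeR) and by 1.32 ± 0.22 on top of PAO (adjusted p = 0.00228, edgeR).

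The genes whose pattern was most like that of H19 over the 15 libraries included muscle genes. Among 11685 genes that averaged 5 CPM or more, the nearest by Pearson r of log2 CPM were Smtnl1 (r = 0.96), Myh1 (r = 0.95), Mybpc1 (r = 0.94), Castor2 (r = 0.92) and Asb2 (r = 0.92). Myh1 encodes a fast myosin heavy chain and Mybpc1 a myosin-binding protein of muscle. Smtnl1 had a mean of 17.2 ± 2.73 CPM in Control, 12.8 ± 2.87 CPM in CEES and 28.4 ± 3.14 CPM in SNX-5422+CEES. These r values are descriptions; the 15 libraries share groups and depth, and the genes were picked as the highest of many.

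Nctc1, a noncoding gene beside H19 and Igf2 whose transcript runs near their muscle enhancer, was looked at after its values were seen. It stood at 31.5, 67.8 and 39.4 CPM in Control, at 26.5, 23.8 and 26.2 CPM in CEES and at 43.7, 66.9 and 54.6 CPM in SNX-5422+CEES. After PAO it stood at 28.2, 38.2 and 31.8 CPM, and with SNX-5422 on top at 61.9, 65.0 and 64.4 CPM. All CEES libraries lay below all Control libraries, and in both arms the libraries with SNX-5422 lay above those without. Nctc1 fell after CEES by 0.86 (SE 0.21, adjusted p = 0.00533, edgeR) and rose with SNX-5422 by 0.96 ± 0.21 on top of PAO (adjusted p = 0.0139, edgeR) and by 1.11 ± 0.21 on top of CEES (adjusted p = 0.00542, edgeR).

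Igf2 was sparse in this adult skin but was ordered like H19 in the CEES arm. It stood at 1.34, 0.651 and 1.17 CPM in Control, 0.437, 0.734 and 0.312 CPM after CEES and 1.52, 1.37 and 1.32 CPM in SNX-5422+CEES, from 7 to 37 counts per library over all groups. After PAO it stood at 0.945, 1.03 and 0.759 CPM, and at 1.14, 1.43 and 1.55 CPM with SNX-5422 on top. The highest CEES library lay above the lowest Control library, while all SNX-5422+CEES libraries lay above all CEES libraries. Igf2 fell after CEES by 1.07 (SE 0.36, adjusted p = 0.0304, edgeR) and rose with SNX-5422 on top of CEES by 1.49 ± 0.35 (adjusted p = 0.0171, edgeR). On top of PAO the difference was 0.59 ± 0.35 (adjusted p = 0.379, edgeR), and after PAO alone it was -0.21 ± 0.35 (adjusted p = 0.715, edgeR).

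Both Igf2 calls rest on few counts and were lost in several settings, while the direction held in them. After CEES the difference was not called without Control replicate 1 (-0.89, adjusted p = 0.112, edgeR), Control replicate 3 (-0.98, adjusted p = 0.0997), CEES replicate 1 (-0.99, adjusted p = 0.0922) or CEES replicate 3 (-0.83, adjusted p = 0.123). Nor was it called under total counts (-0.97, adjusted p = 0.0562, edgeR), without the filter on low counts (-1.06, adjusted p = 0.0708) or with only the groups compared in the fit (-1.07, adjusted p = 0.0885). The rise with SNX-5422 on top of CEES was not called without CEES replicate 1 (1.40, adjusted p = 0.0678, edgeR) or CEES replicate 3 (1.25, adjusted p = 0.0821). In the GENCODE M21 annotation, another gene on the same strand, Gm49394, shares 62.8% of the exon bases of Igf2, so the count of Igf2 is uncertain. The genes most like Igf2 over the 15 libraries were Col4a4 (r = 0.90), Tmem8b (r = 0.83), Rac3 (r = 0.83), Arhgap21 (r = 0.81) and Nabp2 (r = 0.81).

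**Figure D3:**
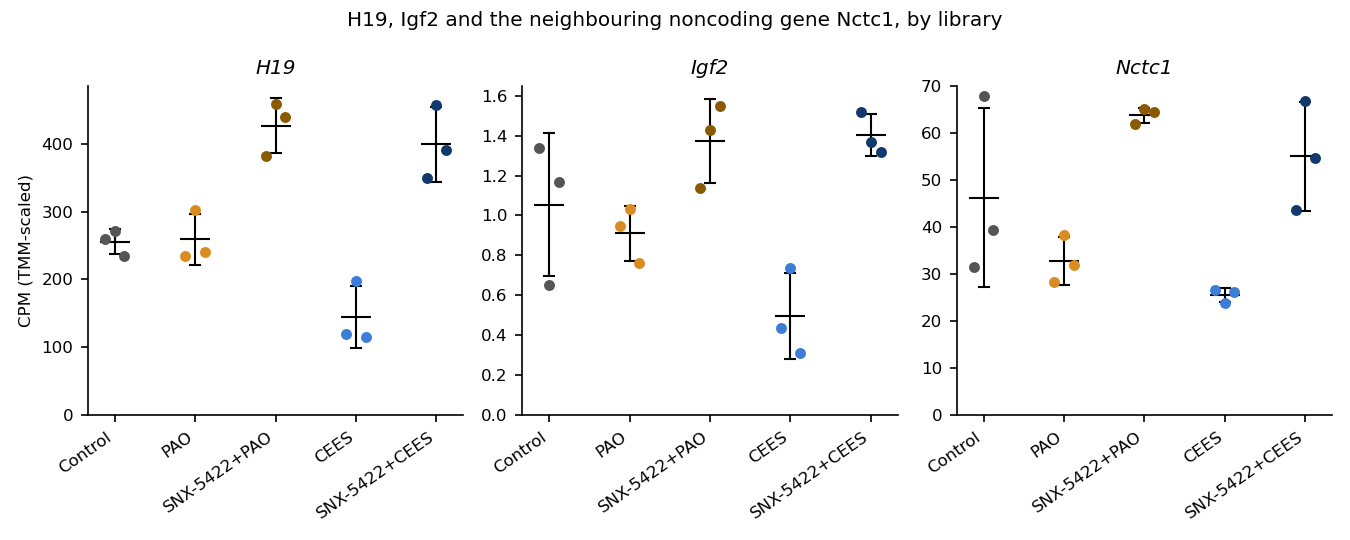
CPM on TMM-scaled libraries (y axes, from 0) of H19, Igf2 and the neighbouring noncoding gene Nctc1 in the 5 groups (x axis), with a point per library, the mean as a horizontal line and the SD as a bar (n = 3). H19 lies at 115 to 197 CPM in CEES and at 349 to 458 CPM in SNX-5422+CEES, and Igf2 lies at 0.312 to 0.734 CPM and 1.32 to 1.52 CPM in the same groups.

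RefSeq gives 4 start sites for Igf2, and the 250 bases before each were searched on both strands for the letters GAANNTTC or TTCNNGAA. These letters are a short part of the heat shock element, the motif bound by HSF proteins. This motif was chosen because SNX-5422 targets HSP90, but full elements, which are longer, were not searched for. The form TTCNNGAA stood in 7.17% of 32851 windows of all genes and the form GAANNTTC in 6.69%. Among the 15 windows of the 8 members with an entry, only window 2 of Igf2 held TTCNNGAA, at a single place, and no window held GAANNTTC. That window lies at chr7:142661272-142661521 on the minus strand of GRCm38.p6, with the matching letters in capitals.
Igf2 window 2: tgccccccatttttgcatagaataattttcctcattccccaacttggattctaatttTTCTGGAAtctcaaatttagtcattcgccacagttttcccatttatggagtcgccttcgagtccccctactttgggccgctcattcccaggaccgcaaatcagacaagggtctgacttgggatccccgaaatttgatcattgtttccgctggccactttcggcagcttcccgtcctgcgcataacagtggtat
The match is a description of these letters and carries no value for binding. H19 and Cdkn1c had no window.

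Other genes of the insulin-like growth factor pathway were called in both directions after CEES and after PAO. Of 19 tested, 9 rose and 2 fell after CEES, 6 rose and 2 fell after PAO, 1 rose and 3 fell with SNX-5422 on top of PAO, and 0 rose and 2 fell with it on top of CEES. Over all genes, 17.8% rose and 16.2% fell after CEES, and 11.9% rose and 8.58% fell after PAO. With SNX-5422 these shares were 2.57% and 3.39% on top of PAO and 3.54% and 3.46% on top of CEES. Igf1, the other growth factor of the pathway, rose after CEES from 18.4 ± 1.31 to 54.7 ± 5.34 CPM, by 1.57 ± 0.19 (adjusted p = 1.08e-05, edgeR), where Igf2 fell. Igfbp4, a binding protein that holds these factors, rose by 0.98 ± 0.17 (adjusted p = 0.000271, edgeR), while Pappa, a protease that cleaves it, fell by 0.97 (SE 0.26, adjusted p = 0.00865, edgeR).

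Receptors and intracellular members of the pathway were also called. Igf2r, the imprinted receptor that clears Igf2, rose by 0.44 ± 0.09 after PAO (adjusted p = 0.00198, edgeR) and by 0.27 ± 0.09 after CEES (adjusted p = 0.0225, edgeR). Irs1, the docking protein below the Igf1 receptor, fell by 0.62 after PAO (SE 0.11, adjusted p = 0.00102, edgeR) and by 0.43 after CEES (SE 0.11, adjusted p = 0.00751, edgeR), and rose with SNX-5422 on top of PAO by 0.91 ± 0.11 (adjusted p = 0.000452, edgeR). Igf2bp2, an RNA-binding protein that binds Igf2 messenger RNA, rose after PAO from 6.17 ± 0.472 to 19.8 ± 5.01 CPM and stood at 8.86 ± 1.32 CPM with SNX-5422 on top. That lower level differed from PAO by -1.16 ± 0.23 (adjusted p = 0.00797, edgeR).

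Dlk1, a membrane protein of the Notch family that holds back differentiation of fat and muscle precursors, was nearly absent after CEES. It stood at 0.428, 0.325 and 0.292 CPM in Control and at 0.0437, 0.0816 and 0 CPM in CEES, or 24 and 3 counts over each group. It stood at 0.0824, 0.117 and 0.124 CPM in SNX-5422+CEES, or 8 counts. Every library of both CEES groups lay below every library of the other groups. After PAO it stood at 0.222, 0.834 and 0.304 CPM and with SNX-5422 on top at 0.399, 0.416 and 0.674 CPM, which overlapped each other and Control. The ratio of Control to CEES was 7.86, with a 95% interval of 2.39 to 40.8 that covers counting error only, and that of Control to SNX-5422+CEES was 3.12, with an interval of 1.36 to 8.05. Dlk1 was below the filter and had no test.

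Pancreas RNA moved with the same split of groups as Dlk1. A list of 20 islet and acinar genes took 0.110 to 0.365% of gene counts in Control, 0.116 to 0.180% in PAO and 0.166 to 0.238% in SNX-5422+PAO. In CEES its share was 0.00155 to 0.00195%, and in SNX-5422+CEES it was 0.00365 to 0.0196%, with the acinar gene Amy2a5 at 0 counts in both of these groups. Prss1, another acinar gene, was at 0 counts in these groups and in SNX-5422+PAO as well. Ins2, the insulin gene next to Igf2 and a marker of islets, stood at 1220, 447 and 431 CPM in Control and at 2.97, 4.24 and 5.49 CPM in CEES; it was named after its values were seen. Insulin is made by islet beta cells, which also make Dlk1 in mice. The part of pancreas RNA in the level of Dlk1 was not tested.

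Meg3, the maternally expressed noncoding RNA beside Dlk1, was low in both PAO groups and uneven in Control. It stood at 62.9, 16.5 and 46.8 CPM in Control, 25.7, 16.5 and 18.7 CPM in PAO and 22.5, 15.9 and 18.2 CPM in SNX-5422+PAO. It stood at 45.7, 48.9 and 46.5 CPM in CEES and 55.4, 66.9 and 62.3 CPM in SNX-5422+CEES. Control replicate 2 sat among the PAO libraries, so the groups overlapped. Meg3 fell after PAO by 1.05 (SE 0.31, adjusted p = 0.0253, edgeR) and was lower than Control in SNX-5422+PAO by -1.15 ± 0.31 (adjusted p = 0.0178, edgeR). The call after PAO was lost at a like difference without Control replicate 3 (-0.96, adjusted p = 0.0837, edgeR), PAO replicate 2 (-0.93, adjusted p = 0.0768) or PAO replicate 3 (-1, adjusted p = 0.0912), and with only the compared groups in the fit (-1.04, adjusted p = 0.0973). The difference was smaller without Control replicate 1 (-0.65, adjusted p = 0.163, edgeR) and with the mitochondrial ribosomal RNA share as a covariate (-0.46, adjusted p = 0.568). That share was 9.69 to 17.7% in PAO. The call in SNX-5422+PAO against Control was lost at a like difference without Control replicate 3 (-1.07, adjusted p = 0.0658, edgeR), SNX-5422+PAO replicate 2 (-1.05, adjusted p = 0.0616) or 3 (-1.15, adjusted p = 0.0571), and with only the compared groups in the fit (-1.17, adjusted p = 0.0755). The difference was smaller without Control replicate 1 (-0.76, adjusted p = 0.116, edgeR) and with the muscle list (-0.06, adjusted p = 0.981) or the mitochondrial ribosomal RNA share (-0.39, adjusted p = 0.737) as a covariate.

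The other noncoding RNAs of the chromosome 12 cluster were higher in both CEES groups. These neighbours were looked at after their values were seen. Rian, which hosts small nucleolar RNAs, stood at 22.7, 8.69 and 19.9 CPM in Control and 35, 37.9 and 33.3 CPM in CEES, with no overlap. It rose after CEES by 1.05 ± 0.25 (adjusted p = 0.00394, edgeR), and was higher in SNX-5422+CEES than in Control by 1.32 ± 0.25 (adjusted p = 0.00136, edgeR). Mirg, which hosts microRNAs, rose after CEES by 1.19 ± 0.33 (adjusted p = 0.0106, edgeR), from 2.73, 1.16 and 2.72 CPM to 5.42, 4.16 and 5.62 CPM. Meg3 itself differed from Control by 0.16 ± 0.30 after CEES (adjusted p = 0.722, edgeR). With SNX-5422 on top of CEES it differed from CEES by 0.39 ± 0.30 (adjusted p = 0.538, edgeR), and this was called with only these groups in the fit (0.37, adjusted p = 0.0311, edgeR). Rtl1, a retrotransposon-derived gene made from the paternal copy, stood at 3.80, 0.836 and 3.08 CPM in Control and at 3.93, 3.43 and 3.97 CPM in CEES (0.55 ± 0.44, adjusted p = 0.357, edgeR). Control replicate 2 was the lowest Control library for Meg3, Rian, Mirg and Rtl1 alike.

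**Figure D4:**
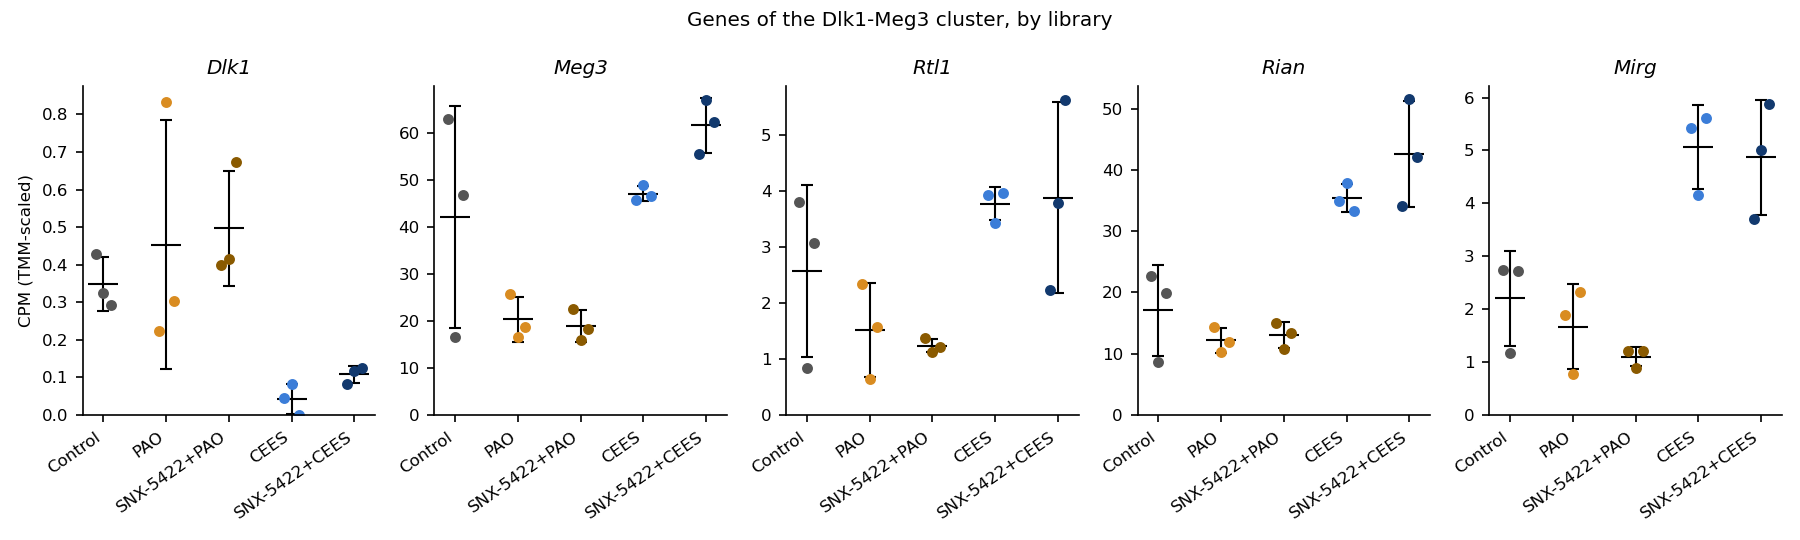
CPM on TMM-scaled libraries (y axes, from 0) of Dlk1, Meg3, Rtl1, Rian and Mirg in the 5 groups (x axis), with a point per library, the mean as a horizontal line and the SD as a bar (n = 3). Dlk1 is at 0 to 0.0816 CPM in CEES while Rian is at 33.3 to 37.9 CPM there, above its Control libraries.

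Peg3, a paternally expressed zinc finger gene, was the member called in the most comparisons. It stood at 31.1, 29.2 and 30.4 CPM in Control, 27.4, 26.0 and 29.5 CPM in PAO and 51.5, 39.0 and 46.1 CPM in SNX-5422+PAO. It stood at 41.6, 43.3 and 36.3 CPM in CEES and 45.5, 41.0 and 44.7 CPM in SNX-5422+CEES. The lowest library of SNX-5422+PAO, CEES or SNX-5422+CEES lay above all Control and PAO libraries. Peg3 rose with SNX-5422 on top of PAO by 0.72 ± 0.10 (adjusted p = 0.00115, edgeR), and it stayed called without each library in turn, at adjusted p-values up to 0.00923. It rose after CEES by 0.42 ± 0.10 (adjusted p = 0.00476, edgeR); with the muscle list as a covariate this was 0.39 (adjusted p = 0.0683, edgeR). On top of CEES, SNX-5422 gave a difference of 0.12 ± 0.10 (adjusted p = 0.604, edgeR), with a 95% interval of -0.11 to 0.34.

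The inhibitor's differences were compared between the arms for the 8 tested members. None was called by edgeR, 0 of 8 against 0.737% of all genes, with 1 at an unadjusted p under 0.05, and DESeq2 called 1. That member was Peg3, whose difference on top of CEES minus that on top of PAO was -0.60 ± 0.15 (adjusted p = 0.0639, edgeR), and DESeq2 gave -0.63 (adjusted p = 0.0099). Without SNX-5422+PAO replicate 2 the adjusted p in edgeR was 0.0347. For H19 the same difference was 0.75 ± 0.24 and was not tested.

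Grb10, an adaptor that binds the insulin and Igf1 receptors and restrains their signal, was higher in both CEES groups. It stood at 21.9, 32.3 and 26.1 CPM in Control, 47.5, 57.7 and 52.1 CPM in CEES and 49.7, 68.1 and 57.2 CPM in SNX-5422+CEES. After PAO it stood at 40.5, 23.1 and 37.1 CPM and with SNX-5422 on top at 36.0, 35.4 and 32.0 CPM. All 6 libraries of the CEES groups lay above the 9 others, and PAO overlapped Control. PAO differed from Control by 0.33 ± 0.18 (adjusted p = 0.22, edgeR), and without PAO replicate 2 this was called (0.52, adjusted p = 0.0238, edgeR). Grb10 rose after CEES by 0.97 ± 0.18 (adjusted p = 0.000543, edgeR) and was called without each library in turn, at adjusted p-values up to 0.00377. In SNX-5422+CEES it was above Control by 1.12 ± 0.18 (adjusted p = 0.00032, edgeR), and SNX-5422 on top of CEES gave 0.15 ± 0.17 (adjusted p = 0.705, edgeR).

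Other growth factor receptor adaptors did not move as a block. Of 9 tested, 4 rose and 2 fell after CEES and 4 rose and 2 fell after PAO. All genes split into 17.8% raised and 16.2% lowered after CEES, and 11.9% raised and 8.58% lowered after PAO. Grb7, of the same adaptor family as Grb10, fell after CEES by 1.02 (SE 0.13, adjusted p = 2.67e-05, edgeR) and after PAO by 0.71 (SE 0.13, adjusted p = 0.00146, edgeR). Grb14, the third of that family, fell after CEES by 0.82 (SE 0.16, adjusted p = 0.00102, edgeR) and rose with SNX-5422 by 1.12 ± 0.16 on top of PAO (adjusted p = 0.00124, edgeR) and by 0.71 ± 0.16 on top of CEES (adjusted p = 0.0143, edgeR). Grb2, the adaptor that links receptors to Ras, rose after CEES by 0.48 ± 0.09 (adjusted p = 0.000865, edgeR).

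The Grb10 promoter is shown because it was the member window richest in CpG, the sites at which DNA can be methylated. The 250 bases before its first start site, chr11:12037421-12037670 on the minus strand of GRCm38.p6, hold 40 CpG, printed in capitals, and 98.7% of the 32851 windows hold fewer; the median window holds 6. It holds the GC box GGGCGG, searched on both strands, at 5 places, and 32.7% of all windows hold at least a single copy. The AP-1 letters TGANTCA, found in 6.75% of windows, were in none of the 15 member windows. Methylation was not measured.
Grb10 window 1: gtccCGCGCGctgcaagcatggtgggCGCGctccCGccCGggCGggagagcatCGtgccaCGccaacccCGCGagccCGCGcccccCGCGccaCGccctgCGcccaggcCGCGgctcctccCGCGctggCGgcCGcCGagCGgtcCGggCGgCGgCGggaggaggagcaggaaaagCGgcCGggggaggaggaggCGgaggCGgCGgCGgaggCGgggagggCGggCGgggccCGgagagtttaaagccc

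Ndn, which encodes necdin, a growth-restraining protein of neurons and of stem and precursor cells, showed the largest fitted rise of the tested members after CEES. It stood at 1.82, 3.49 and 2.24 CPM in Control, 7.12, 5.91 and 7.58 CPM in CEES and 7.13, 6.42 and 5.88 CPM in SNX-5422+CEES. It stood at 4.33, 2.24 and 3.69 CPM in PAO and 4.38, 2.26 and 3.51 CPM in SNX-5422+PAO. All 6 libraries of the CEES groups lay above the 9 others, and both PAO groups overlapped Control. Ndn rose after CEES by 1.45 ± 0.27 (adjusted p = 0.000635, edgeR), was called without each library in turn at adjusted p-values up to 0.00548, and differed by -0.09 ± 0.25 with SNX-5422 on top (adjusted p = 0.904, edgeR).

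Mest, a paternally expressed enzyme of the hydrolase fold tied to growth of fat tissue in mice, rose after CEES with wide spread. It stood at 8.83, 3.62 and 5.06 CPM in Control and at 9.44, 17.5 and 10.2 CPM in CEES, and CEES replicate 2 was the highest of all libraries. It stood at 11.8, 9.35 and 7.95 CPM in SNX-5422+CEES, 8.34, 4.10 and 6.07 CPM in PAO and 6.38, 4.87 and 4.59 CPM in SNX-5422+PAO. The CEES libraries lay above the Control libraries, by a narrow gap to Control replicate 1. The rise was 1.10 ± 0.31 (adjusted p = 0.0125, edgeR), and it was not called without Control replicate 2 (0.87, adjusted p = 0.0503, edgeR), Control replicate 3 (1, adjusted p = 0.0554) or CEES replicate 2 (0.76, adjusted p = 0.0832), nor with the muscle list as a covariate (0.36, adjusted p = 0.54, edgeR). Copg2, on the opposite strand, shares 23.1% of the exon bases of Mest in GENCODE M21, and without a known strand setting their reads cannot be told apart there; Copg2 fell after CEES by 0.29 (SE 0.09, adjusted p = 0.0263, edgeR).

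Markers of fibroblasts and matrix took a larger share in both CEES groups, where Peg3, Grb10 and Ndn were called above Control. Mest was called in CEES but not in SNX-5422+CEES (0.74, adjusted p = 0.101, edgeR). Against Control, Mest in SNX-5422+CEES was called without the filter (0.75, adjusted p = 0.0128, edgeR) and with the muscle covariate (1.02, adjusted p = 0.0202). It was also called there without Control replicate 1 (1.15, adjusted p = 0.0202, edgeR). The fibroblast and matrix list of 17 genes, all with counts in every library, took 0.375 to 0.533% of gene counts in Control. It took 0.383 to 0.798% in PAO and 0.279 to 0.443% in SNX-5422+PAO, the group with the highest mean of Peg3. Its share was 1.81 to 2.05% in CEES and 1.16 to 1.47% in SNX-5422+CEES. Endothelial markers, 12 of 12 with counts in every library, averaged 0.016% in Control and 0.0517% in CEES, and macrophage markers averaged 0.0419% and 0.23%. Their part in the results for these members was not tested.

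Plagl1, a paternally expressed zinc finger protein that halts the cell cycle, was lower than Control only with SNX-5422 on top of PAO among the comparisons called. It stood at 18.3, 10.5 and 12.8 CPM in Control, 11.5, 9.17 and 8.55 CPM in PAO and 9.40, 7.84 and 8.16 CPM in SNX-5422+PAO. It stood at 13.9, 13.1 and 14.2 CPM in CEES and 19.4, 15.6 and 14.9 CPM in SNX-5422+CEES. All SNX-5422+PAO libraries lay below all Control libraries, and Control replicate 1 stood above the other Control libraries. The difference was -0.71 ± 0.18 (adjusted p = 0.0135, edgeR), and without Control replicate 1 it was -0.46 (adjusted p = 0.0825, edgeR). It was not called with the muscle list (-0.02, adjusted p = 0.987, edgeR) or the mitochondrial ribosomal RNA share (-0.23, adjusted p = 0.72) as a covariate. PAO alone differed from Control by -0.51 ± 0.18 (adjusted p = 0.059, edgeR), and this was called without Control replicate 2 (adjusted p = 0.0131, edgeR) or PAO replicate 1 (0.0422) and by DESeq2 (0.0393). SNX-5422+PAO differed from PAO by -0.20 ± 0.19 (adjusted p = 0.613, edgeR).

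Cdkn1c, a maternally expressed inhibitor of cyclin-dependent kinases, was also lowest in SNX-5422+PAO. It stood at 4.12, 5.20 and 4.57 CPM in Control, 4.17, 4.04 and 3.04 CPM in PAO and 3.36, 1.07 and 2.02 CPM in SNX-5422+PAO. It stood at 3.41, 2.77 and 3.17 CPM in CEES and 4.00, 2.58 and 3.19 CPM in SNX-5422+CEES. The libraries of SNX-5422+PAO, CEES and SNX-5422+CEES all lay below the Control libraries. SNX-5422+PAO differed from Control by -1.10 ± 0.30 (adjusted p = 0.0172, edgeR), which was not called without its replicate 2 (-0.79, adjusted p = 0.0596, edgeR) or its replicate 3 (-1.08, adjusted p = 0.0596), or with only the compared groups in the fit (-1.12, adjusted p = 0.0623). With the muscle list as a covariate the difference was larger but not called (-1.45, adjusted p = 0.24, edgeR), and with the mitochondrial ribosomal RNA share it was smaller (-0.60, adjusted p = 0.528, edgeR). Against PAO the difference was -0.79 ± 0.30 (adjusted p = 0.15, edgeR), and it was -1.29 without SNX-5422+PAO replicate 1 (adjusted p = 0.0178, edgeR). CEES differed from Control by -0.57 ± 0.28 (adjusted p = 0.128, edgeR), and with only these groups in the fit this was called (-0.57, adjusted p = 0.0407, edgeR). Gm44732, on the opposite strand, shares 30.7% of the exon bases of Cdkn1c in GENCODE M21, so its count is uncertain.

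**Figure D5:**
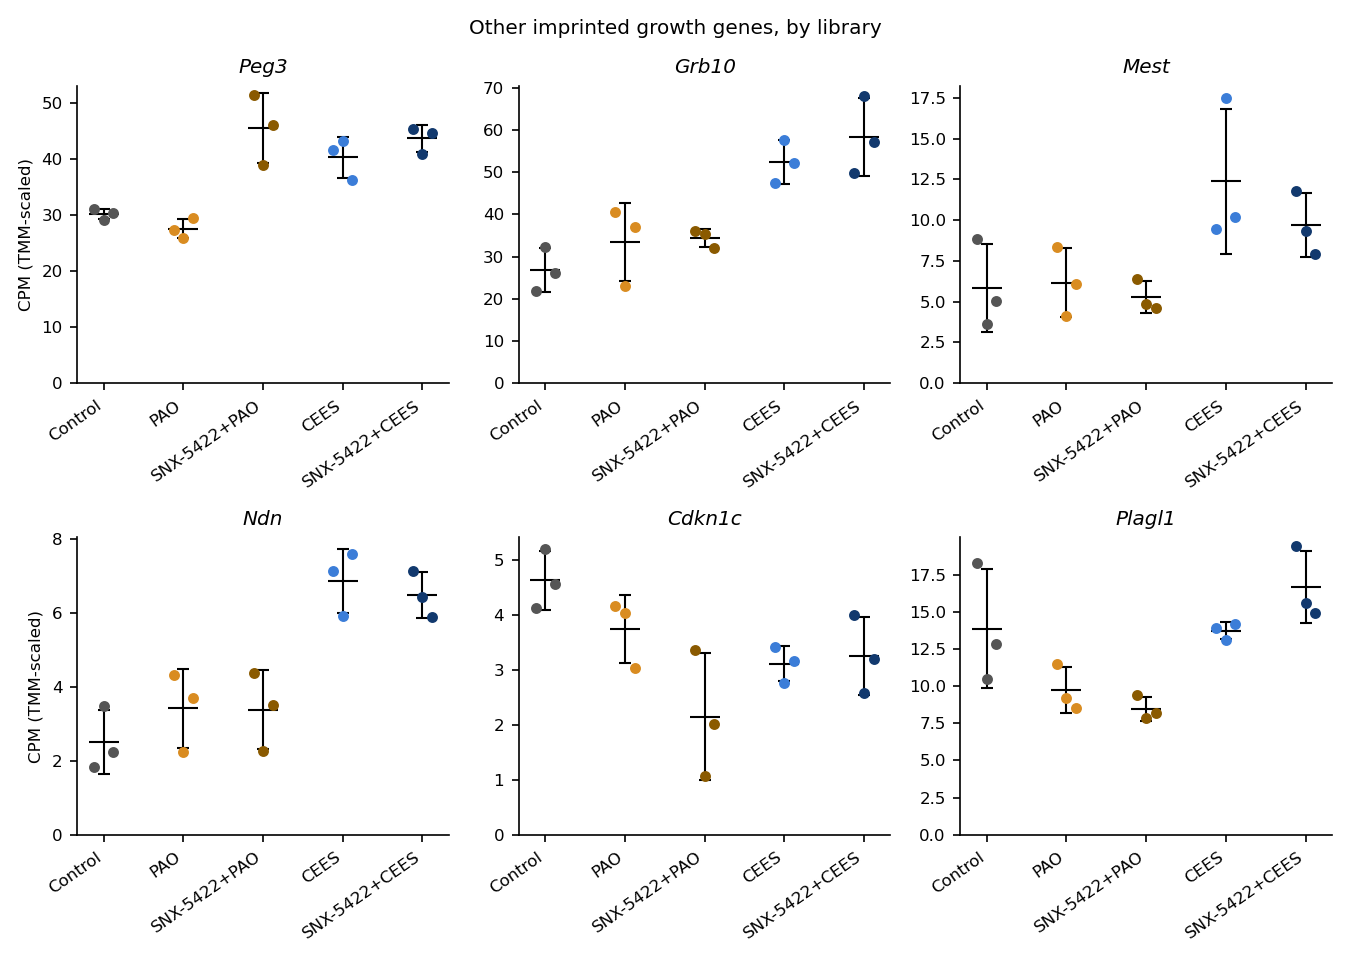
CPM on TMM-scaled libraries (y axes, from 0) of Peg3, Grb10, Mest, Ndn, Cdkn1c and Plagl1 in the 5 groups (x axis), with a point per library, the mean as a horizontal line and the SD as a bar (n = 3). Grb10 and Ndn lie at 47.5 to 57.7 CPM and 5.91 to 7.58 CPM in CEES, above all Control libraries, and Cdkn1c lies at 1.07 to 3.36 CPM in SNX-5422+PAO, below all of them.

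Of 7 other inhibitors of cyclin-dependent kinases tested, 1 rose and 1 fell after CEES, and 0 rose and 2 fell after PAO. The calls over all genes were 33.9% after CEES and 20.4% after PAO. Cdkn1a, the p21 gene of the p53 response, rose after CEES by 0.76 ± 0.11 (adjusted p = 6.72e-05, edgeR) and was lowered by SNX-5422 on top of PAO (-0.50 ± 0.11, adjusted p = 0.0144, edgeR). Cdkn1b, the p27 gene, fell after CEES by 0.41 (SE 0.07, adjusted p = 0.000395, edgeR) and after PAO by 0.30 (SE 0.07, adjusted p = 0.00706, edgeR). Cdkn2c rose with SNX-5422 on top of PAO by 0.61 ± 0.13 (adjusted p = 0.0106, edgeR), where Cdkn1c was not called.

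Measured against Control, 4 of 8 tested members were called in SNX-5422+PAO, against 19.3% of all genes (10.7% raised, 8.66% lowered). In SNX-5422+CEES 3 of 8 were called, against 22.3% (13.1% raised, 9.25% lowered). In SNX-5422+PAO, Peg3 was higher (0.59 ± 0.10, adjusted p = 0.00103, edgeR) and Meg3, Cdkn1c and Plagl1 were lower. The Peg3 value was 0.25 under total counts (adjusted p = 0.122, edgeR) and 0.63 with the muscle covariate (adjusted p = 0.148, edgeR). In SNX-5422+CEES, Peg3 was higher (0.53 ± 0.10, adjusted p = 0.00144, edgeR), as were Grb10 and Ndn (1.36 ± 0.27, adjusted p = 0.00191, edgeR). Without Control replicate 1, 6 of 8 were called there, with Meg3 (0.95, adjusted p = 0.0389, edgeR), Mest (1.15, adjusted p = 0.0202) and Plagl1 (0.51, adjusted p = 0.0414) higher as well. Igf2 was not called in either, at 0.38 (adjusted p = 0.476, edgeR) beside PAO and 0.42 (adjusted p = 0.395, edgeR) beside CEES. These comparisons share the Control libraries with those of the agents alone.

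Imprinted genes beside the members changed in both directions after CEES. Of 42 tested, 9 rose and 6 fell after CEES, 7 rose and 0 fell after PAO, and 0 rose and 1 fell with SNX-5422 in each arm. Among all genes, 17.8% rose and 16.2% fell after CEES, so this list was called there about as often as genes at large. After PAO 11.9% of all genes rose and 8.58% fell. With SNX-5422 the shares were 2.57% and 3.39% on top of PAO and 3.54% and 3.46% on top of CEES. Gnas, which encodes a stimulatory G protein subunit, rose after CEES by 1.42 ± 0.14 (adjusted p = 1.56e-06, edgeR) and was lowered by SNX-5422 on top of CEES (-0.53 ± 0.13, adjusted p = 0.0233, edgeR). Cd81, a tetraspanin in the same chromosome 7 domain as Cdkn1c, rose after CEES by 1.03 ± 0.11 (adjusted p = 2.98e-06, edgeR) and after PAO by 0.66 ± 0.11 (adjusted p = 0.000427, edgeR). Ddc, an enzyme of amine synthesis next to Grb10, fell after CEES by 2.78 (SE 0.61, adjusted p = 0.00208, edgeR), where the pancreas list was lower as well. Impact, a regulator of the amino acid stress kinase Gcn2, rose after PAO by 0.75 ± 0.10 (adjusted p = 7.52e-05, edgeR) and was lowered by SNX-5422 on top of it (-0.55 ± 0.10, adjusted p = 0.0039, edgeR).

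Factors that set or keep imprints were called in both directions. Of 16 tested, 0 rose and 4 fell after PAO, 1 rose and 2 fell after CEES, and 4 rose and 0 fell with SNX-5422 on top of PAO. With SNX-5422 on top of CEES, 0 rose and 0 fell. The shares of all genes called in either direction were 20.4% after PAO and 33.9% after CEES. With SNX-5422 they were 5.96% on top of PAO and 7% on top of CEES. Tet1, an enzyme that oxidises methylated cytosine, fell after PAO by 0.92 (SE 0.21, adjusted p = 0.00622, edgeR) and after CEES by 0.62 (SE 0.21, adjusted p = 0.0299, edgeR). Uhrf1, which brings the maintenance methyltransferase to replicating DNA, rose with SNX-5422 on top of PAO by 0.80 ± 0.15 (adjusted p = 0.00484, edgeR), as did Hells, a chromatin remodeller of DNA methylation, by 0.58 ± 0.09 (adjusted p = 0.00187, edgeR). The inhibitor's difference in Hells was smaller on top of CEES than on top of PAO, by -0.64 ± 0.13 (adjusted p = 0.0319, edgeR).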

How the data were processed

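Total RNA of 15 skin libraries was depleted of ribosomal RNA and sequenced, per the labels' protocols. Per the submitters' processing notes, bcl2fastq 2.18.0.12, Trim Galore 0.6.7, STAR 2.7.10a, HTSeq 2.0.2 and the build GRCm39 were used. The authors deposited 1 table of raw counts per gene. Neither its annotation release nor its strand setting is given in the sources used here. The 5 summary entries were left out of library sizes; reads without a feature were 35.17 to 46.91%, ambiguous reads 2.081 to 2.531% and reads aligned more than once 4.781 to 9.758%.

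All comparisons came from 1 fit in edgeR 4.0.16 (R 4.3.3, glmQLFTest, two-sided) of the 15 libraries with a mean per group, 10 residual degrees of freedom, TMM factors of 0.8196 to 1.189 and filterByExpr, which left 22529 genes. SEs come from the F statistic. DESeq2 1.42.0 and other scalings, filters, covariates and left-out libraries were tried. The covariate of mitochondrial ribosomal RNA and its removal from the counts were chosen after seeing the data. edgeR's log2 CPM with a prior count of 2 was used for likeness. The fit was tested on simulated data.

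The members and lists were chosen with earlier results of these data known. H19 was left untested in every comparison, since those that did not choose it share libraries with those that did. Text names all members and up to 2 raised and 2 lowered genes per list and comparison with the smallest p. It also names the 5 genes most like H19 and Igf2. Other genes, among them Igf2r after CEES and Copg2, fall outside this rule. Some of these are said to be chosen after their values were seen. Levels per kb use exon lengths of GENCODE M21 (GRCm38), a build other than the authors', which served only for lengths, overlaps and RefSeq sequences; 8 of 10 members had a promoter entry. The labels do not say that libraries came from separate animals, so the p-values cover only the spread among these samples, part of which may be technical. Replicates differed by a chi-square per degree of freedom of 6.99 to 50.2, so none looked like a duplicate.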

Additional observations from a re-analysis of the deposited data

How the results depend on the processing

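RLE scaling and leaving mitochondrial ribosomal RNA out of the counts changed no call of a member. Grb10 and Ndn after CEES and Peg3 with SNX-5422 on top of PAO kept their calls under every alternative run, and H19 kept its direction after CEES and with SNX-5422 in both arms. Total counts moved the median of all genes by -0.21 in PAO and -0.34 in SNX-5422+PAO against Control and by 0.12 in CEES; their calls are relative to that shift.

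Members called in PAO against Control, 1 in edgeR, were 2 under total counts, without the filter, in DESeq2, with the muscle covariate and with the replicate block, and 0 with only the groups compared or the mitochondrial ribosomal RNA covariate. In CEES against Control they were 3 with the muscle covariate. In SNX-5422+CEES against CEES they were 2 with only the groups compared, and against Control 5 without the filter. In SNX-5422+PAO against Control they were 2 with only the groups compared, 0 with the muscle covariate and 1 with the mitochondrial covariate. For the difference between the inhibitor's effects, 1 was called without the filter, in DESeq2 and with the muscle covariate, where all genes called were 899, 694 and 499 in place of 166. All genes called in SNX-5422+PAO against Control were 7501 (646 raised, 6855 lowered) under total counts, 397 with the muscle covariate and 451 with the mitochondrial covariate, in place of 4353 (2401 raised, 1952 lowered), and in PAO against Control 2070 with the mitochondrial covariate in place of 4607. H19 in SNX-5422+PAO against Control was 0.41 under total counts and 0.07 with the mitochondrial covariate, and in PAO against Control it was -0.50 with the latter. The cause was not tested.

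Signs turned only for values that were not called. Plagl1 in CEES against Control was 0.00 under RLE, without the filter and in DESeq2, 0.10 under total counts and 0.02 with the block. Under total counts Mest in PAO was -0.11, Grb10 in SNX-5422+PAO against PAO -0.11 and Cdkn1c in SNX-5422+CEES against CEES -0.04. With the muscle covariate Meg3 in CEES was -0.39; in SNX-5422+PAO against PAO Meg3 was 0.85, Grb10 -0.59, Mest 0.91 and Plagl1 0.43; in SNX-5422+CEES against CEES Cdkn1c was -0.22, Grb10 -0.42 and Mest 0.66; in SNX-5422+PAO against Control Grb10 was -0.27, Mest 1.12 and Ndn -0.44. With the mitochondrial covariate Cdkn1c in PAO was 0.10, Meg3 and Ndn in SNX-5422+PAO against PAO 0.07 and 0.14, Ndn in SNX-5422+CEES against CEES 0.07, and Igf2 and Mest in SNX-5422+PAO against Control -0.02 and 0.28.

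Without each library in turn, members called ranged from 0 to 2 (PAO), 4 to 5 (CEES), 1 to 2 (SNX-5422+PAO against PAO), 0 to 1 (SNX-5422+CEES against CEES), 2 to 4 and 3 to 6 (both against Control) and 0 to 1 (the difference). All genes called ranged in that order from 2953 to 4920, 6169 to 7361, 566 to 1453, 806 to 1379, 2427 to 5013, 3268 to 5400 and 41 to 404. H19 ranged from -0.11 to 0.07 in PAO, where its sign changed, from -1.12 to -0.68 in CEES, 1.33 to 1.77 in SNX-5422+CEES against CEES and 0.60 to 1.05 in the difference. Among tested members, values that changed sign ranged from -0.15 to 0.23 for Plagl1 and -0.20 to 0.56 for Meg3 in CEES, -0.19 to 0.50 for Mest in PAO and -0.39 to 0.27 in SNX-5422+PAO against Control, -0.11 to 0.21 for Cdkn1c in SNX-5422+CEES against CEES, and in SNX-5422+PAO against PAO from -0.27 to 0.10 for Meg3, -0.18 to 0.19 for Grb10, -0.45 to 0.04 for Mest and -0.27 to 0.20 for Ndn.

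Over 18 same-numbered pairs of libraries, r of their deviations from the group means ran from -0.10 to 0.10. Libraries with the same number thus shared little deviation over all genes. Pairs with different numbers were not compared, so this cannot settle whether the numbers mark pairs. With the replicate block over 12 libraries, Igf2 in CEES was no longer called (-1.09, adjusted p = 0.0701, edgeR) and Plagl1 in PAO was (-0.49, adjusted p = 0.0389, edgeR). No paired analysis was possible for SNX-5422+CEES because its labels all carry number 1. Few counts limit Igf2 and Dlk1.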
